A study of Homo sapiens with 3 samples.

Results

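Chromosome 14 held 672 of the 23641 peaks of 8-oxo-7,8-dihydro-2'-deoxyguanosine (8-oxodG) in the deposited list, 2.84% of all. Its peaks were every row of the list on that chromosome, in coordinates of the human genome build hg18. Of the 672, 14 had summits between 102406000 and 102458000, near the end of the long arm, and form the set called the TRAF3 region below. The remaining 658 are described with and without them. The data came from MCF10A, an immortal epithelial line from human breast that is not tumorigenic, arrested in G0, where cells rest without dividing. Per the labels, genomic DNA was sonicated and precipitated with an antibody against 8-oxodG before sequencing, the labels name no treatment, and the sources used here do not say how the arrest was reached. The labels gave 3 samples in 1 group, 2 from the first experiment and 1 from the second, with no second condition. The authors deposited 1 list for the 3 samples together, so no replicate error can be given for any value below, and no test over samples could be made.

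8-oxodG is the commonest oxidised form of guanine in DNA. It pairs with adenine as well as with cytosine, which can turn a G-C pair into a T-A pair at replication, and the glycosylase OGG1 removes it in base excision repair. Guanine is the base most easily oxidised, and antibodies against 8-oxodG enrich the fragments that carry it. Chromosome 14 is acrocentric. Its short arm carries ribosomal RNA gene repeats and was not part of the sequenced contig of hg18, so all 672 peaks lay on the long arm, 14q.

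Peaks were spread over the whole of the 88.3 Mb of sequence, at 7.61 peaks per Mb (95% exact Poisson interval 7.05 to 8.21). Without the TRAF3 region the density was 7.45 per Mb (6.89 to 8.04). Poisson intervals here cover counting error only, and are too narrow for peaks that lie in groups. The density of chromosome 14 ranked 13th of 23 chromosomes, or 14th without the region. The 23 ran from 6.15 to 25.6 peaks per Mb with a median of 8.22. Among the other acrocentric chromosomes, chromosome 13 had 6.15 peaks per Mb, chromosome 15 had 6.82, chromosome 21 had 9.95 and chromosome 22 had 14.1. The intervals of chromosomes 13 (5.67 to 6.67), 21 (8.92 to 11.1) and 22 (12.8 to 15.4) did not meet that of chromosome 14, and that of chromosome 15 (6.27 to 7.42) did. No test of these differences was made.

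Width and height were close to those of the rest of the list. The median width was 440.5 bp on chromosome 14 (quartiles 339 and 573), against 452 bp on all other chromosomes (363 and 583). The median pileup, the number of fragments stacked at the summit, was 23 on chromosome 14 (quartiles 15 and 39), against 25 elsewhere (16 and 42). The authors' fold enrichment, the pileup relative to the local background, with its lost decimal point restored, had a median of 11.3 on chromosome 14 and 11.7 elsewhere. The background at the summit, derived from pileup and fold enrichment, had a median of 0.912 fragments, against 1.01 elsewhere. Leaving out the TRAF3 region gave medians of 440 bp, 23 fragments, a fold enrichment of 11.1 and a background of 0.944, so these medians moved little. The upper end did. The highest pileup was 400 with the region and 139 without it, and the highest fold enrichment was 275 with it and 58.4 without it. On the other chromosomes the highest pileup was 316 and the highest fold enrichment 69.9.

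Along 14q the density had a high outer end, a low middle and a smaller rise near the centromere. Cut into stretches of 10 Mb from the outer end inward, the first stretch held 162 peaks, or 16.2 per Mb (95% interval 13.8 to 18.9). The next held 116, or 11.6 per Mb (9.59 to 13.9). The following 6 stretches held 47 to 63 peaks each, between 4.7 and 6.3 per Mb. The innermost stretch of 8.29 Mb held 73 peaks, or 8.81 per Mb (6.90 to 11.1), and its interval lay above the densities of all 6 middle stretches. Without the TRAF3 region the outer stretch had 148 peaks, or 14.8 per Mb, which was still the highest of the 9.

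The outermost 10 Mb thus had 2.49 times the density of the rest of 14q (95% interval 2.07 to 2.97, counting error only), and 2.27 times without the TRAF3 region (1.88 to 2.73). Computed the same way for the long arm of each chromosome, this ratio ran from 1.11 to 2.72 with a median of 2.03, and chromosome 14 ranked 5th of 23, or 8th without its TRAF3 region. Chromosome 21 (2.63) and chromosome 13 (2.16) were near chromosome 14, while chromosome 22 (1.52) and chromosome 15 (1.29) had a smaller rise at their ends. A stretch of 10 Mb is a larger share of chromosomes 21 and 22 (34.2 and 34.9 Mb of sequence) than of chromosome 14 (88.3 Mb). The ratios and ranks thus compare unlike shares of the arms, and the differences were not tested.

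Peaks near the end of 14q were also wider and taller. The median width was 519.5 bp in the outermost 10 Mb (quartiles 377 and 743), and between 384 and 475.5 bp in the other stretches. The median pileup was 32 (quartiles 18 and 51.75), and between 18 and 25 in the others. Peaks of at least 1 kb numbered 31 on the chromosome, 4.61% of its peaks against 5.56% of the whole list, and 21 of the 31 lay in the outermost 10 Mb. Of those 21, 17 lay in the last band, 14q32.33, some of them in 2 close groups described below. A further 2 belonged to the TRAF3 region. The background at the summit was highest there too, with a median of 1.10 fragments, and between 0.723 and 0.975 in the other stretches. Its part in the density, width and pileup was not tested, and more copies of a region in the libraries and more 8-oxodG per copy cannot be told apart here. Without the TRAF3 region the outer stretch kept a median width of 516 bp, a pileup of 31 and a background of 1.10. These medians were not computed without the close groups.

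**Figure D1:**
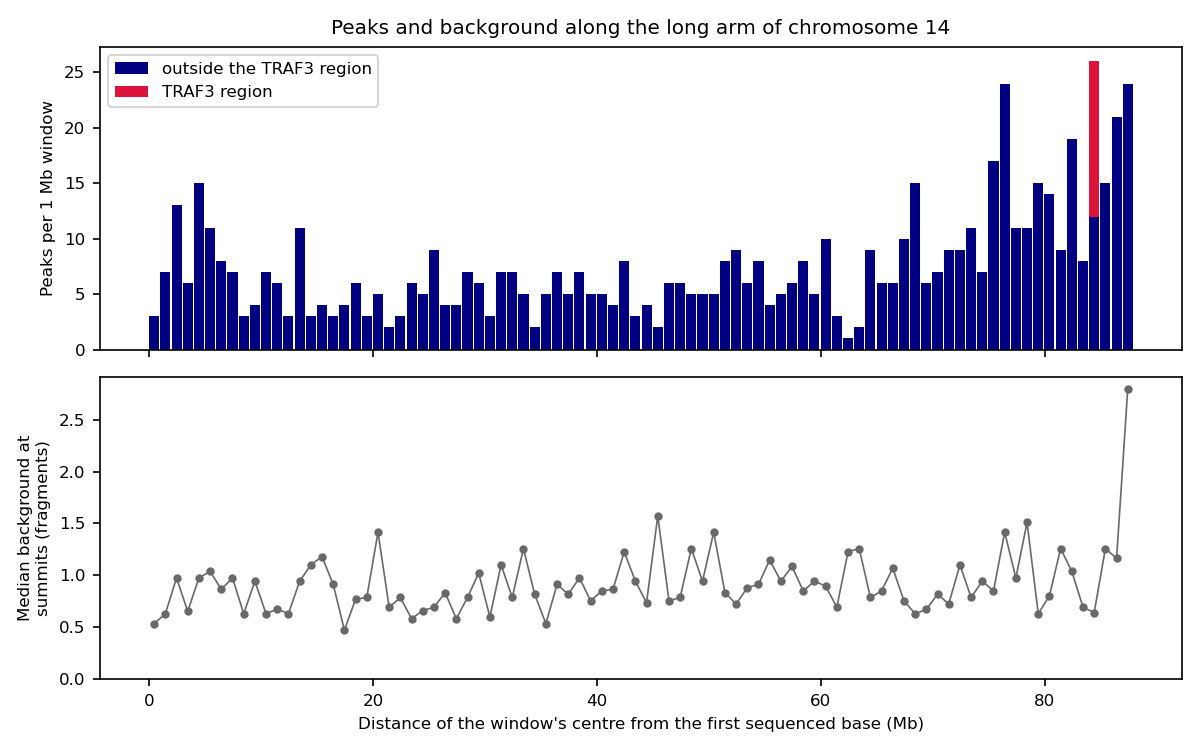
Number of 8-oxodG peaks in windows of 1 Mb along 14q (top) and the median background at their summits in fragments (bottom), against the distance of the window's centre from the first sequenced base in Mb. Red marks the 14 peaks of the TRAF3 region, which fill 14 of the 26 peaks of their window.

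In windows of 1 Mb, of which 88 were at least 50% sequence, the mean was 7.59 ± 5.08 peaks (SD over windows), and every window held at least 1 peak. Without the TRAF3 region it was 7.43 ± 4.70. The window starting at 102 Mb, which holds the region, was the fullest with 26 peaks, and 12 without it. It was followed by windows at 105 Mb in 14q32.33 and at 94 Mb in 14q32.13, with 24 peaks each, at 104 Mb in 14q32.33 with 21, and at 100 Mb in 14q32.31 with 19. The emptiest was the window at 80 Mb in 14q31.1 with 1 peak.

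The longest stretches of sequence with no peak were 1.24 Mb in 14q13.1 (32419338 to 33661587), 1.19 Mb in 14q31.1 (80161978 to 81353831) and 1.01 Mb in 14q12 (26271643 to 27284013). Mappability was not used, so part of this sequence may be out of reach of the reads. The median distance between neighbouring midpoints was 71829 bp, and 73757 bp without the TRAF3 region.

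The bands of the chromosome, which differ in gene content and replication timing, showed the same course in finer steps. Of 27 bands with at least 1 Mb of sequence, the densest were 14q32.33 (19.04 peaks per Mb, from 64 peaks), 14q32.13 (17.3), 14q32.31 (13.9), 14q32.2 (12.4) and 14q11.2 (11.6). The sparsest were 14q11.1 beside the centromere (2.91, from 3 peaks), 14q21.1 (3.17), 14q23.2 (3.21), 14q13.1 (3.91) and 14q31.1 (4.05). Their counts were small, and the interval for 14q21.1 ran from 1.69 to 5.42. The short band 14q32.32, of 0.8 Mb, holds the TRAF3 region and had 22 peaks, or 27.5 per Mb. Without the region it had 8, or 10 per Mb (95% interval 4.32 to 19.7).

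**Figure D2:**
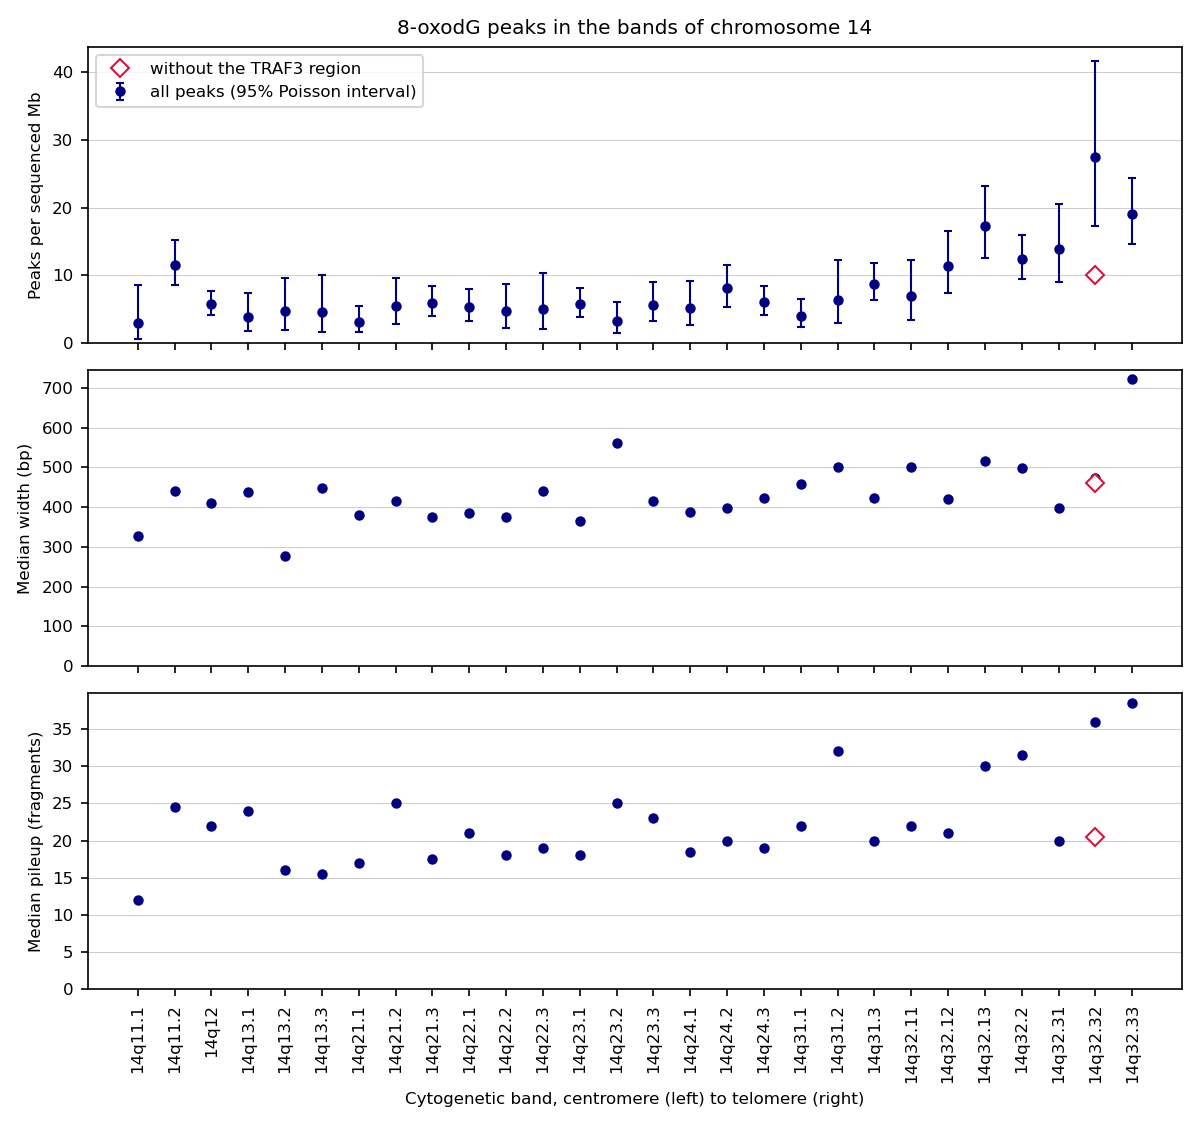
Density in peaks per sequenced Mb with its 95% Poisson interval (top), median width in bp (middle) and median pileup in fragments (bottom) for the 28 bands of 14q, from the centromere at the left to the telomere at the right. Open red diamonds give 14q32.32 without the TRAF3 region, where the density drops to 10 per Mb and the median pileup to 20.5.

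Several bands hold loci of known function, though gene positions were not looked up on hg18. The band 14q32.33, with AKT1, a kinase of growth signalling, and the immunoglobulin heavy chain genes, had the widest and tallest peaks (median width 722.5 bp, median pileup 38.5) and the highest background (1.54 fragments). The band 14q32.13, with the SERPINA cluster of protease inhibitor genes, had a median width of 515 bp and a pileup of 30. The imprinted DLK1-MEG3 locus, with its large clusters of microRNAs and small nucleolar RNAs, lies at the border of 14q32.2 and 14q32.31. These had 12.4 and 13.9 peaks per Mb, with median pileups of 31.5 and 20. At the inner end, 14q11.2, with the T-cell receptor alpha and delta genes, olfactory receptor genes and APEX1, the endonuclease that acts after OGG1, had 52 peaks with a median width of 441 bp and a pileup of 24.5. This was the densest band outside 14q32.

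Bands with known loci in the middle of the arm ranged from 3.17 to 6 peaks per Mb, against a median of 5.73 over the 27 bands. Of the bands listed here only 14q24.3 was above that median. The density was 3.17 per Mb in 14q21.1, with FOXA1, a pioneer factor of breast luminal cells, and 4.62 in 14q13.3, with NKX2-1, a factor of lung and thyroid. It was 4.05 in 14q31.1, with the neurexin gene NRXN3. In 14q23.2, with ESR2, the gene of oestrogen receptor beta, it was 3.21. In 14q24.1, with the recombination gene RAD51B, it was 5.22, and in 14q24.3, with the early response gene FOS, it was 6. These densities describe whole bands and not the genes.

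Taken as classes with 14q32 included, lightly stained bands held more peaks per Mb than dark ones. The density was 8.5 per Mb in 14 Giemsa-negative bands, 8.18 in 2 bands of the lightest positive class and 9.86 in 5 of the next. It was 5.74 in the single band of the next darker class and 5.66 in 5 bands of the darkest. The 3 lighter classes together had 1.55 times the density of the 2 darker ones (95% interval 1.31 to 1.85), and 1.51 times without the TRAF3 region (1.27 to 1.80). The spread within a class was wide, from 3.21 to 19.04 per Mb among Giemsa-negative bands, and most of the highest values came from 14q32. All bands of 14q32 belong to the 3 lighter classes. Outside 14q32 the lighter bands ran from 3.21 (14q23.2) to 11.6 per Mb (14q11.2). Bands of the 2 darker classes ran from 3.17 (14q21.1) to 8.78 (14q31.3). Of these lighter bands only 14q11.2 was denser than 14q31.3, and the next densest was 14q24.2 with 8.06. Apart from 14q11.2, lighter and darker bands outside 14q32 thus covered nearly the same range. The ratio was not computed without 14q32, so the 1.55 does not describe stain apart from place along the arm. Over the 27 bands the density rose with the median background at summits (Spearman's rho = 0.513) and with the median pileup (rho = 0.484). Bands share libraries and neighbours, so these values are descriptions.

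The TRAF3 region stood apart from its surroundings. TRAF3 is an adaptor and ubiquitin ligase of the tumour necrosis factor receptor family, which holds back non-canonical NF-kappaB signalling, and in the RefSeq gene table of GRCh38.p14 it lies between RCOR1 and AMN. The 14 peaks are named after this gene. Without hg18 gene models in the analysis, whether the peaks lie in TRAF3, and whether their spacing follows its exons, was not tested. The nearest other peaks were 237155 bp before the first and 156752 bp after the last of the 14, so the count does not depend on the exact boundaries. The 12 other peaks within 500 kb on either side had pileups of 14 to 41 and fold enrichments of 7.72 to 18.6.

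The first of the 14 peaks (102406071 to 102406759) reached 200 fragments at 138-fold enrichment, the second highest fold of the whole list. After a gap of 1017 bp came a pair of narrow peaks, from 102407777 and from 102408076, with widths of 213 and 208 bp and pileups of 19 and 16. They were the lowest of the region. The next peaks, from 102411491 and from 102412222, were 554 and 615 bp wide, with pileups of 67 and 128 and folds of 42.8 and 79.5.

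After a gap of 9212 bp came a further narrow pair, from 102422049 and from 102422348, with widths of 237 and 235 bp and pileups of 45 and 44. Another narrow pair followed from 102425425 and from 102425721, with widths of 230 and 228 bp and pileups of 37 and 35. Within each pair the heights were nearly equal, and the pairs differed in height between each other.

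The tenth peak, from 102427188, was 546 bp wide with 56 fragments at its summit and a fold of 39.04. The eleventh, from 102433128, was 587 bp wide with 100 fragments and a fold of 68.9, and the twelfth, from 102439119, was 625 bp wide with 136 fragments and a fold of 93.8. The thirteenth (102441077 to 102442604) was 1528 bp wide and had the highest pileup and fold of the whole list, 400 and 275. The tallest peaks thus stood at both ends of this run of 13, and the lowest pair next to its first peak.

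The last peak of the 14 differed from the others. It lay 12834 bp beyond the thirteenth (102455439 to 102457426), was 1988 bp wide with 75 fragments and a fold of 23.5, and had a background of 2.23 fragments. The background of the first 13 was between 0.460 and 0.786, with a median of 0.466. The lowest in the whole list was 0.460, a value that several of the 13 had and that also occurred on other chromosomes. Among peaks of the same background, fold enrichment follows from pileup, so there the 2 are not separate traits. Outside the region, the 12 peaks within 500 kb had a median background of 1.10.

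**Figure D3:**
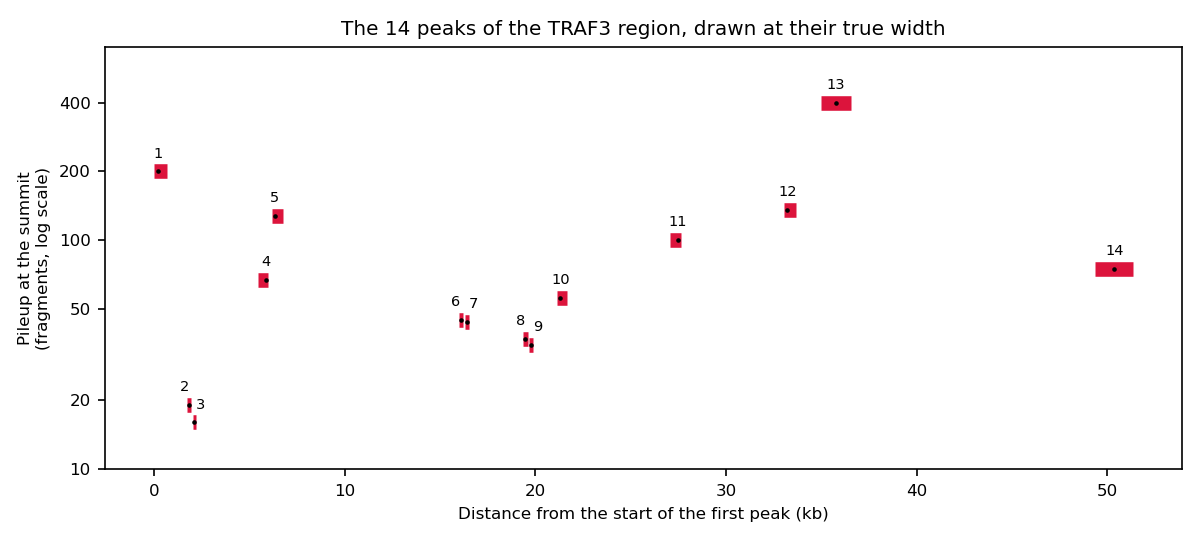
The 14 peaks of the TRAF3 region as horizontal lines of their true width at the height of their pileup in fragments (log scale), with a dot at the summit, against the distance from the start of the first peak in kb. Narrow pairs (2 and 3, 6 and 7, 8 and 9) stand beside broader, taller peaks, and peak 14 lies apart from the other 13.

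The first 13 peaks covered 6495 bp, or 17.8% of the 36.5 kb they span. The gaps between them fell into a short and a long kind. There were 4 gaps of 62 to 177 bp, and 8 of 1017 to 9212 bp, which divide the 13 peaks into 9 places. The 3 narrow pairs were spaced alike, with summits 268, 325 and 302 bp apart and gaps of 86, 62 and 66 bp. The fourth short gap, between the fourth and the fifth peak, was 177 bp, with summits 479 bp apart. Among the long gaps the distances were irregular, at 1017, 3207, 9212, 2842, 1239, 5394, 5404 and 1333 bp in order.

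Width and height were tied within the run. Over the first 13 peaks the order by width was the same as the order by pileup (Spearman's rho = 1), from 208 bp and 16 fragments to 1528 bp and 400 fragments. This does not hold over all 14 peaks of the region. The last, left out here, was the widest with 1988 bp but had 75 fragments, and several narrower ones were taller. Over the 658 peaks outside the region, of which none was left out, rho was 0.767. These are descriptions over peaks of 1 list. The region's peaks narrower than 250 bp were taller than the others of that kind on chromosome 14. Of the 31 peaks on chromosome 14 narrower than 250 bp, 6 lay in the region, with pileups of 16 to 45, and the other 25 had a median pileup of 12 and a highest one of 15. Narrow peaks with a pileup of at least 35 numbered 4 on chromosome 14, and all 4 were in the region. In the whole list 21 of 776 narrow peaks were that tall, and on chromosome 18 a peak of 228 bp reached 78 fragments. The limits of 250 bp and 35 fragments were not part of the plan. The lowest of the region's 4 had exactly 35, so these counts only describe the region.

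Pairs of such narrow peaks with at most 300 bp between them were uncommon. This limit was likewise not part of the plan. The list held 33, of which 3 were on chromosome 14, all in the TRAF3 region. Summits of the other 30 pairs were 127 to 398 bp apart with a median of 255.5 bp, so the spacing within the region's pairs lay inside that range. The folds of 2 of the 3 pairs did not. The lower fold of the pair was 25.2 and 24.5 in the pairs from 102422049 and from 102425425, and 11.3 in that from 102407777. Among the other 30 pairs it had a median of 8.11 and a highest value of 12.2. By pileup all 3 pairs lay inside the range of the other 30. A pair on chromosome 18 had pileups of 56 and 78, and a pair on chromosome 9 had 45 and 40. Fold is relative to the background, which was 0.460 to 0.786 fragments at the pairs from 102422049 and from 102425425.

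Other peaks of the chromosome shared the low background of the region. A background below 0.5 fragments was found at 9 of the 14 peaks of the region and at 56 of the other 658, or 8.51%. Those 56 had a median pileup of 13 and a highest one of 59, a median fold of 9.55 and a highest one of 40.8. Of the 9 in the region, 4 were above both of these highest values, with pileups of 100 to 400, and the other 5 were within them, with pileups of 19 to 56. In the region, 7 of 14 peaks had a fold of at least 35, against 23 of 658 in the rest of the chromosome. The 14 peaks made up 2.08% of the peaks of chromosome 14 and 6.48% of the sum of its summit pileups. Whether the fragments under them stem from the genome of the cells, or reached the libraries another way, was not tested.

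**Figure D4:**
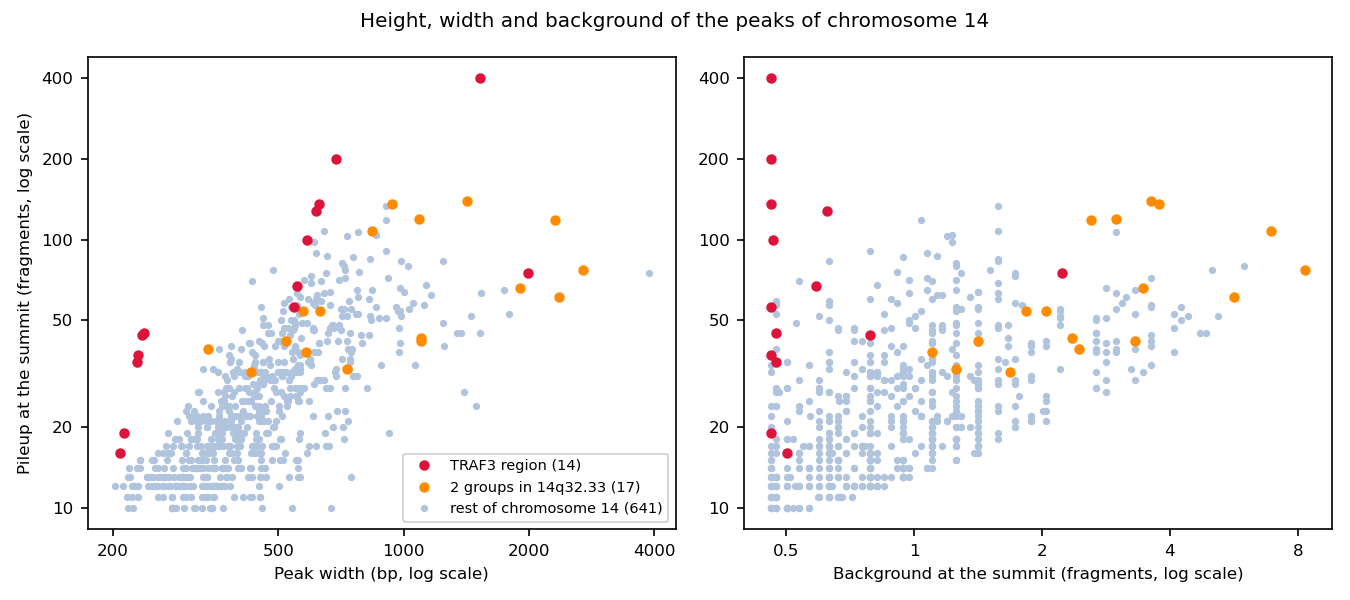
Pileup at the summit in fragments (log scale) against peak width in bp (left, log scale) and against the background at the summit in fragments (right, log scale) for the 672 peaks of chromosome 14. Of the 14 peaks of the TRAF3 region (red), 9 have a background below 0.5, with pileups of up to 400, while the peaks of the close groups in 14q32.33 (orange) have a background of 1.10 to 8.34.

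Close groups of at least 4 peaks, with neighbouring midpoints within 5 kb, numbered 45 in the list, and 4 of them were on chromosome 14. A pair of these were the first 5 peaks of the TRAF3 region and its peaks 6 to 10, with median folds of 42.8 and 26.02, the highest and the third highest of the 45, and median backgrounds of 0.503 and 0.472. The other pair lay in 14q32.33 and differed from them in background. The first of these (105099976 to 105123036) held 9 peaks with widths of 430 to 2358 bp, pileups of 32 to 139 and a median fold of 18.6. The second (105220484 to 105243235) held 8 peaks with widths of 339 to 2693 bp, pileups of 33 to 118 and a median fold of 14.4. Their median backgrounds were 2.99 and 2.53 fragments, against a median of 1.59 over the 45 groups.

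The groups in 14q32.33 had a similar layout. With the first group moved by 119880 bp, the shift that brought most peaks together among those from 100000 to 140000 bp, all 9 of its peaks touched a peak of the second group, but only 7 by more than 100 bp. The peaks from 105110516 and from 105113391 touched opposite edges of the same wide peak, by 10 and 1 bp. The midpoints of the other 7 were 119696 to 120162 bp from those they met. Since the shift was chosen for this count and several peaks are over 1 kb wide, the count is a description. Heights were less alike than positions. The peaks of the first group from 105115137 and 105117862 had pileups of 136 and 120, and the peaks they met had 54 and 42. The tallest of the first group, from 105113391 with 139, had no match beyond the contact of 1 bp. The peak of the second group from 105222054, with a pileup of 108, met one of 32 in the first. The sequence under the peaks was not used, so whether the groups lie in copies of one sequence was not tested.

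**Figure D5:**
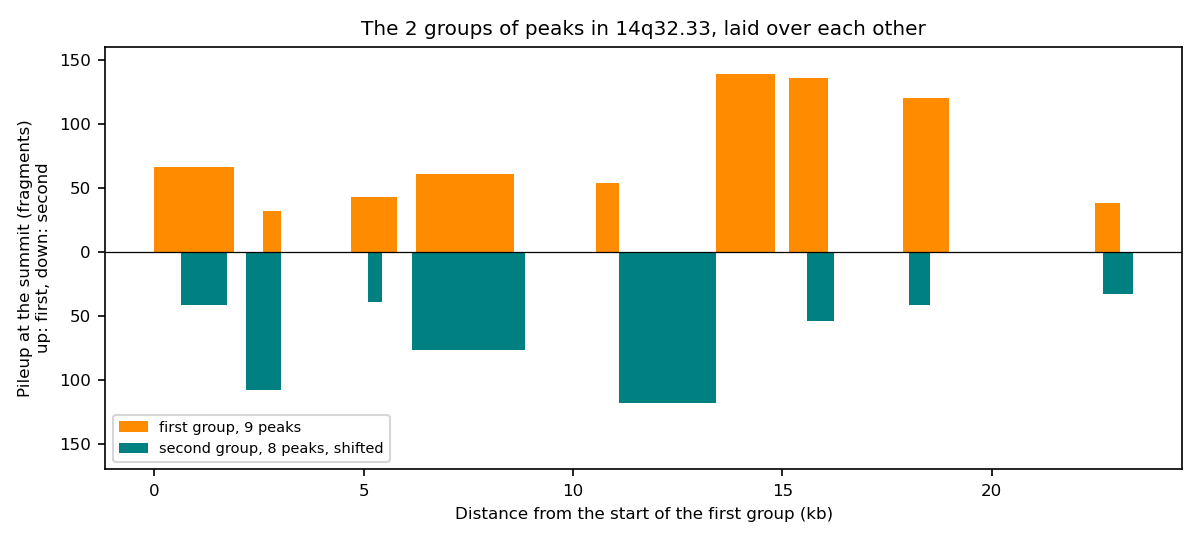
Peaks of the first group in 14q32.33 (upward, orange) and of the second group (downward, teal, moved back by 119880 bp), drawn at their true width with the pileup at the summit in fragments, against the distance from the start of the first group in kb. Of the 9 peaks of the first group, 7 overlap a peak of the second by more than 100 bp, with unlike heights, and the other 2 touch the edges of 1 wide peak by 10 and 1 bp.

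Outside the TRAF3 region, the strongest peak by fold enrichment lay in 14q32.13 (94910661 to 94911569), with a fold of 58.4 and a pileup of 118. The next was in 14q21.3 (44869550 to 44870456), in the middle of the arm, with a fold of 52.5 and a pileup of 134. These were followed by peaks in 14q32.13 (from 93524010, fold 51.6), 14q32.2 (from 96304406, 51.502) and 14q12 (from 31144523, 47.4). The next 5 had folds of 43.5 to 47.2 and lay in 14q24.3, 14q32.2, 14q32.11 and 14q12. Of these 10 peaks, 6 lay in 14q32 and 0 in a band below the median density of the 27, though 14q12 is itself the median band (5.73 per Mb). The bands from 14q32.11 to 14q32.33 held 11, 26, 45, 62, 25, 8 and 64 of the 658 peaks outside the region. Dense bands hold more peaks of any fold, so these counts are descriptions.

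The widest peaks were placed differently from those of highest fold, and the tallest only in part. The 5 widest outside the region all lay in 14q32.33, the widest from 104396062 with 3888 bp, 75 fragments and a fold of 27.8. The other 4 belonged to the close groups there, with widths of 1906 to 2693 bp and backgrounds of 2.61 to 8.34 fragments. Of the 5 tallest, 3 were the peaks of the first close group with pileups of 139, 136 and 120, and the others were those in 14q21.3 and 14q32.13 named for their fold. Leaving out both close groups left 145 peaks in the outermost 10 Mb, 2.23 times the density of the rest (95% interval 1.84 to 2.68), a comparison added after the groups had been seen.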

How the data were processed

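8-oxodG DNA immunoprecipitation sequencing was measured in 3 samples of G0-arrested MCF10A cells, and the authors deposited 1 combined peak list. The submitters' processing notes name BWA, SAMtools, bedtools and the build hg18, without versions. The sources used here give neither the peak caller, its control and settings nor the pooling of samples and the reads per sample, so the depth is unknown. Per the file headers, each row gives position, width, summit, pileup (the summit's signal in stacked fragments), fold enrichment, and p and q as −log10.

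The deposited fold enrichment and p had lost their decimal points. The points were restored from the Poisson relation between pileup, background and p, with background = (pileup + 1) / fold − 1. This was met within 0.01 on the −log10 scale for 671 of 672 peaks of chromosome 14. The other, the peak of pileup 400, missed by 4.22. Tested on 1996 simulated rows, 100% were returned. The value of q was used for nothing printed here.

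Peaks were placed by their midpoint. Bands of hg18 came from circlize 0.4.16 and contigs from IRanges 2.36.0 (R 4.3.3). Densities are per sequenced Mb, with exact Poisson intervals, and intervals of ratios are exact conditional binomial ones. Python 3.11.15, numpy 2.4.6, pandas 2.3.3, scipy 1.17.1 and matplotlib 3.10.9 were used. Peaks named were all of the TRAF3 region, and outside it the 10 highest in fold, 5 widest and 5 tallest, with the 5 densest and sparsest bands, the 5 fullest windows, the 3 longest empty stretches and all groups of at least 4. What is said of the close groups was chosen after seeing them. The limits for narrow peaks, narrow pairs, tall peaks, high folds and low background were not part of the plan. Members and lists were chosen with earlier results of these data known. RefSeq promoter and microRNA sequences were not used, since no position of theirs is on hg18. A locus of the list of bands is not reported here.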

Additional observations from a re-analysis of the deposited data

How the results depend on the processing

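Of 37 recomputed values, 32 stayed within the 95% interval of the value reported (for the number of peaks, within 1.5 times). Neither density ratio changed direction, and the other values have no direction to change. No setting left 14q32 out of the ratio of lighter to darker bands. With peaks of at least the list's median fold enrichment, the density was 3.57 per Mb, as fewer peaks are counted, the ratio of the outermost 10 Mb to the rest was 3.13, the median width 536 bp and the median pileup 36. Without the TRAF3 region and both close groups of 14q32.33, chosen after seeing the data, the ratio was 2.01. The cause was not tested. The TRAF3 region kept 14 peaks with boundaries moved out by 10 kb, 13 of at least median fold, and 10 after joining peaks within 1 kb.

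The planned comparison of peak spacing with exons was not run, because no exon positions were used here. No replicate was left out, since the list combines the samples. No paired analysis was possible because the list holds no value per sample. Mappability, read depth and copy number were not used.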
